A study of Mus musculus with 6 samples.

Results

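The genes described here are 34 genes of cell proliferation and DNA replication, chosen by name, among the 22488 genes counted in whole mouse liver. They comprise 8 cyclins, kinases and a transcription factor of the G1 phase, 8 genes that license replication origins, 4 genes of DNA synthesis, 12 genes of the G2 phase and mitosis, and the polo-like kinases Plk2 and Plk3. Each name was found on 1 line of the count tables, with an Entrez identifier. RNA came from livers of male wild-type C57BL/6 mice of 6 to 8 weeks, all fasted overnight for 16 h. For the controls (n = 3) the labels give an intraperitoneal injection of 200 µl HBSS, a salt buffer, although another label calls these mice untreated. For the LPS group (n = 3) they give 6 mg/kg of lipopolysaccharide, a cell wall component of Gram-negative bacteria that acts as an endotoxin. How long after injection the livers were taken is not given in the sources used here.

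Adult liver is a tissue of mostly resting cells, in which hepatocytes stay outside the cell cycle until tissue is lost or damaged. Entry into the cycle starts with D-type cyclins that activate Cdk4 and Cdk6, followed by E-type cyclins with Cdk2, which together free E2F factors from the retinoblastoma proteins. E2F factors drive genes of origin licensing and DNA synthesis, and a later set of genes, held silent in resting cells by the DREAM complex through CHR elements, drives mitosis. Resident macrophages, endothelial cells and immature blood cells in the liver can divide as well, so RNA of the whole organ does not say which cells a transcript came from.

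Promoter windows of these genes were taken from RefSeq (GRCm38.p6) as 250 bases before to 50 bases after the start site. Windows with matches to motifs known from genes of licensing or of mitosis are shown for 5 members that rose after LPS. Other members with matches, such as Cdt1, Cdk1 and Aurka, did not pass and are not shown. Mcm7, which rose by less and has an E2F match, is not shown either. The 5 were chosen by their rise, so they give no link between motif and rise. Windows were available for 28 of the 34 members, with 30 windows in all. The E2F site was searched as TTTCCCGC and TTTGGCGC and the CHR element as TTTGAA, on both strands. None of the 3 motifs overlaps another in the windows shown. Capitals mark the matches, and every run is written 5′ to 3′ on the strand of the gene. For Mcm6, Cdk2, Top2a and Mki67 the 200 bases before the start site are given, and for Mcm3 the 30 bases that hold its matches, from 17 to 46 bases after the start site.
Mcm6, chr1:128359706-128359905, minus strand, with 2 E2F matches: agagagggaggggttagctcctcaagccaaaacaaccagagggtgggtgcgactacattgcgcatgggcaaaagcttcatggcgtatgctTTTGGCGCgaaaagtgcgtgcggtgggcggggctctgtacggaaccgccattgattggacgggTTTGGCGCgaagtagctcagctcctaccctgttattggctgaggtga
Cdk2, chr10:128705052-128705251, minus strand, with 1 E2F match: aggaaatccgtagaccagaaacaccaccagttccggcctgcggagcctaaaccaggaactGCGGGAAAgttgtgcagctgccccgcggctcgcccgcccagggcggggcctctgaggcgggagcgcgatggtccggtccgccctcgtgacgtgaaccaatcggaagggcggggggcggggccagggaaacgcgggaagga
Mcm3, chr1:20820266-20820295, minus strand, with 2 E2F matches: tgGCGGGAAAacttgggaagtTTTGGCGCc
Top2a, chr11:99024190-99024389, minus strand, with 2 CHR matches: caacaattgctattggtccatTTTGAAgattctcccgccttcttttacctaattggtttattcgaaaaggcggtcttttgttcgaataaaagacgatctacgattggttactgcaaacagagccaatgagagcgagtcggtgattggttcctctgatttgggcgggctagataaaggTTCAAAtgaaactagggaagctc
Mki67, chr7:135716380-135716579, minus strand, with 2 CHR matches: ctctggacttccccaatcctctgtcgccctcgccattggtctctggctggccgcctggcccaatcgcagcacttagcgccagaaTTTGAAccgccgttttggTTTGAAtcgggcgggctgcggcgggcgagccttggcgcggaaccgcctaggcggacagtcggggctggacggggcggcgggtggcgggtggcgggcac

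One of the E2F forms stood in 7 of the 30 member windows (23.3%), beside 1.56% of all 32851 promoter windows of the same length. The 7 members were Cdc6, Cdt1, Mcm3, Mcm5, Mcm6, Mcm7 and Cdk2, so 6 of them belong to origin licensing. TTTGAA stood in 8 member windows (26.7%), beside 17.9% of all windows. These were Aurka, Ccnb2, Cdc20, Cdk1, Mki67, Plk1 and Top2a of the mitotic group and Mcm2 of the licensing group. The matches describe the sequence alone and do not show that a factor was bound. The windows compared were not matched for GC content, which had a median of 52.7% over all windows.

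Most members were scarce in liver, and those that changed did so in both directions. Of the 34 members 28 had enough counts to be tested between LPS and control libraries. At an adjusted p of 0.05, LPS libraries had more of 10 of them and less of 3 (edgeR's quasi-likelihood test with Benjamini-Hochberg adjustment over 12078 genes). Over all genes tested, 31.3% were higher and 31% lower, or 62.3% in either direction. The members that were higher made up 35.7% of those tested, a share near that of all genes, and those that were lower made up 10.7%. The median log2 fold change was 0.28 over the tested members and 0.01 over all tested genes. The LPS libraries lay wholly above the controls in 12 tested members and wholly below in 4, beside 34% and 33.4% of all tested genes, or 67.4% in either direction. The number higher ran from 7 without control replicate 3 to 10 without LPS replicate 1 when 1 library was left out. The 6 members that were not tested, Cdc6, Ccnb1, Plk1, Aurkb, Bub1 and Cdc20, had at most 18 counts in any library.

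**Figure D1:**
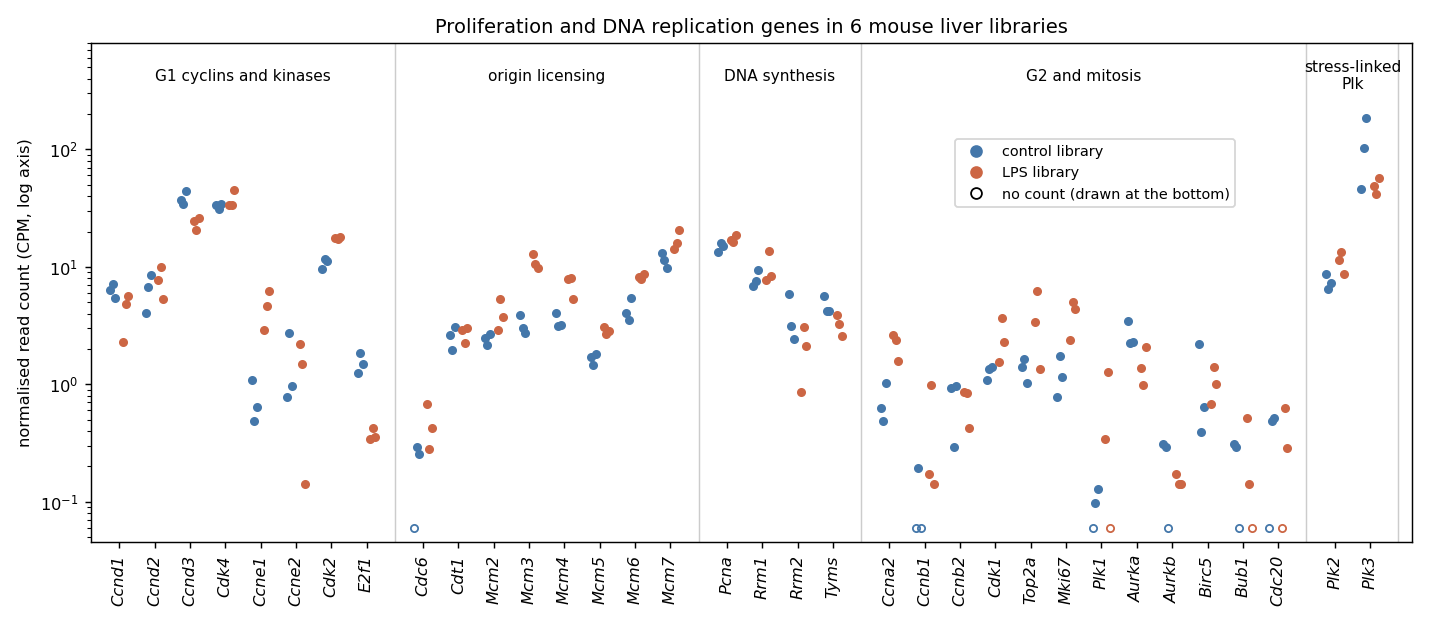
Normalised read counts (CPM, log axis) of the 34 members in 3 control and 3 LPS libraries, grouped by role, with 1 point per library and open points for libraries with no count. Plk3, Cdk4 and Ccnd3 have the highest mean CPM, Ccne1, Mcm3 and Mki67 are higher in every LPS library, and E2f1 and Ccnd3 are lower in every LPS library.

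The total count ran from 11488525 to 20282004 per library, and the values given are read counts normalised to library size (CPM, with TMM scaling). Hepatocyte markers, which define the tissue, summed to 111600 to 124100 CPM in controls and to 66570 to 92050 CPM in LPS libraries, with 8 of the 10 lower and 1 higher. Neutrophil markers summed to 4.04 to 5.89 CPM in controls and to 218.9 to 268.5 CPM in LPS libraries, and all 9 that could be tested of 12 listed were higher. Kupffer cell markers summed to 515.4 to 544.6 and to 271.6 to 308.0 CPM, with 5 of 6 tested lower and 1 higher. Monocyte and macrophage markers summed to 94.66 to 103.6 CPM in controls and to 39.45 to 45.48 CPM in LPS libraries. Of these 8 markers 3 were higher and 3 lower. Of the T and NK cell markers 1 of 5 was higher, and of the B and plasma cell markers 2 of 5 were lower. Of sinusoidal endothelial markers 5 of 7 were lower and 1 higher. Their sums overlapped, with 257.0 to 284.6 CPM in controls and 150.9 to 257.7 CPM in LPS libraries. Of stellate cell markers 4 of 7 were lower, but their sums overlapped as well, at 241.5 to 255.1 and 233.5 to 267.3 CPM. Of cholangiocyte markers 3 of 4 were higher and 1 lower, and of erythroid markers 2 of 6 were higher and 1 lower. Over all tested genes 31.3% were higher and 31% lower. The counts for T and NK cell, B and plasma cell and erythroid markers rest on 5, 5 and 6 tested genes and are not read as shifts. No matched marker was at 0 in all 6 libraries. The part of the marker differences in the results below was not tested. In RNA of a whole organ fewer cells of a type and less RNA per cell cannot be told apart.

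Of the 5 cyclins of G1, Ccne1 rose, Ccnd3 fell and the others did not pass. Ccne1 (chr7:38097984-38107534, GRCm38), a cyclin E that activates Cdk2 at the entry to S phase, had 1.09, 0.486 and 0.641 CPM in control replicates 1, 2 and 3 and 2.90, 4.64 and 6.20 CPM in LPS replicates 1, 2 and 3. Every LPS library lay above every control library, and the log2 fold change was 2.67 (SE 0.44, adjusted p = 0.0001425 by edgeR), or 6.36-fold. It was the largest rise among the tested members. The controls of Ccne1 had only 14, 10 and 10 counts, and its 95% interval ran from 1.71 to 3.62. The other cyclin E, Ccne2, ran from 0.780 to 2.72 CPM in controls and from 0.143 to 2.22 CPM in LPS libraries, so the groups overlapped. Its log2 fold change was -0.28 with a 95% interval from -1.78 to 1.22. Exons of Ccne2 share 609 bases with Ints8 on the opposite strand, which fell (log2 fold change -0.66). Per kb of transcript, Ccne1 made up 46.3% ± 23.5 (SD, n = 3) of the E-type cyclin level in controls and 82.4% ± 16.1 in LPS libraries, with shares of 21.2% to 67.8% and 66.3% to 98.5% that overlapped.

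Ccnd3, the D-type cyclin with the highest level in this liver, fell. Its values were 37.3, 34.3 and 44.1 CPM in the controls and 24.7, 20.7 and 25.9 CPM in the LPS libraries, with no overlap (log2 fold change -0.70, SE 0.14, adjusted p = 0.0007537 by edgeR). Per kb of transcript Ccnd3 accounted for 87.0% ± 2.14 (SD, n = 3) of the D-type cyclin level in controls and for 82.6% ± 4.59 in LPS libraries, a difference within their spread. Ccnd1, the D-type cyclin known for its rise in regenerating liver, had 6.39, 7.15 and 5.39 CPM in the controls and 2.30, 4.78 and 5.63 CPM in the LPS libraries. These groups overlapped through LPS replicate 3, and the log2 fold change of -0.57 (95% interval -1.24 to 0.11) did not pass. Ccnd2 ran from 4.05 to 8.59 CPM in controls and from 5.35 to 9.92 CPM in LPS libraries (log2 fold change 0.24, 95% interval -0.41 to 0.88). Exons of Ccnd1 share 1100 bases with the gene LTO1 on the opposite strand, and those of Ccnd3 share 361 bases with Bysl, whose level rose (log2 fold change 0.64).

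Of the other G1 genes Cdk2 rose, E2f1 fell and Cdk4 did not pass. Cdk2, the partner of cyclins E and A, rose from 9.67, 11.7 and 11.2 CPM to 17.7, 17.2 and 18.1 CPM (log2 fold change 0.70, SE 0.16, adjusted p = 0.00195 by edgeR). The coefficient of variation of Cdk2 over the LPS libraries was 2.71%, and the groups did not overlap. Cdk4, the partner of the D-type cyclins, had 31.1 to 34.1 CPM in controls and 33.6, 33.3 and 45.3 CPM in LPS libraries, a log2 fold change of 0.18 (95% interval -0.12 to 0.49), and the difference between Cdk4 and Cdk2 was not tested. Exons of Cdk4 share 641 bases with Tspan31 on the opposite strand, which stood at 157 ± 13.9 CPM in controls and 62.5 ± 11.5 in LPS libraries (SD, n = 3). E2f1, the transcription factor that activates genes of S phase, had 16, 38 and 23 counts in the controls and 4, 6 and 5 in the LPS libraries. At 1.25 to 1.85 against 0.341 to 0.422 CPM its groups did not overlap, and it fell (log2 fold change -2.01, SE 0.53, adjusted p = 0.00463 by edgeR), the largest fall among the tested members. It did not enter the fits that kept genes by their mean CPM or that halved every count.

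The subunits of the replicative helicase stood higher in LPS libraries together. Mcm2 to Mcm7 form the ring of 6 subunits that is loaded at origins and unwinds DNA, and in each of the 6 genes every LPS library lay above every control library. Over all tested genes this held for 34%. Mcm3 rose from 3.90, 3.02 and 2.76 CPM to 12.8, 10.5 and 9.84 CPM (log2 fold change 1.78, SE 0.24, adjusted p = 2.224e-05 by edgeR). Mcm4 rose from 4.05, 3.11 and 3.21 CPM to 7.93, 8.02 and 5.35 CPM (1.04, SE 0.27). Mcm6 rose from 4.05, 3.50 and 5.39 CPM to 8.19, 7.88 and 8.63 CPM (0.93, SE 0.24). In each of the 3 genes the lowest LPS value lay above the highest control value, and the fitted folds were 3.43, 2.06 and 1.91.

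Mcm7 had 13.2, 11.5 and 9.81 CPM in controls and 14.2, 16.0 and 20.5 CPM in LPS libraries and rose by less (0.56, SE 0.19, adjusted p = 0.0194 by edgeR). Its call ended without control replicate 3 (log2 fold change 0.44) and without LPS replicate 3 (0.41). Exons of Mcm7 share 64 bases with Cops6 on the opposite strand, which went from 125.2 ± 3.26 to 68.0 ± 0.436 CPM (SD, n = 3). They also share 321 bases with Ap4m1 on that strand, which did not pass (log2 fold change 0.24). In addition, 2157 bases of the Mcm7 transcript match the pseudogene Gm5487 at 97.7% identity. Mcm2 went from 2.14 to 2.69 CPM in controls to 2.90, 5.27 and 3.71 CPM in LPS libraries and did not pass (0.71, adjusted p = 0.0810 by edgeR). Mcm5 went from 1.46 to 1.80 CPM to 2.67 to 3.07 CPM and did not pass either (0.79, adjusted p = 0.0707 by edgeR). The 6 log2 fold changes stayed above 0 in all 12 other fits, and the 4 calls ended in none of them except those named for Mcm7.

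Per kb of transcript the subunits were not at equal levels. Mcm7 made up 47.7% ± 4.10 (SD, n = 3) of the summed Mcm2 to Mcm7 level in controls and 37.4% ± 6.31 in LPS libraries, and Mcm3 made up 13.0% ± 1.20 and 24% ± 3.93. Mcm5 had the lowest mean share, at 6.06% ± 0.734 and 5.57% ± 0.483, but in LPS replicate 1 Mcm2 (5.79%) lay below Mcm5 (6.11%). The summed CPM of the 6 genes ran from 24.7 to 29.4 in controls and from 49.0 to 50.8 in LPS libraries.

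**Figure D2:**
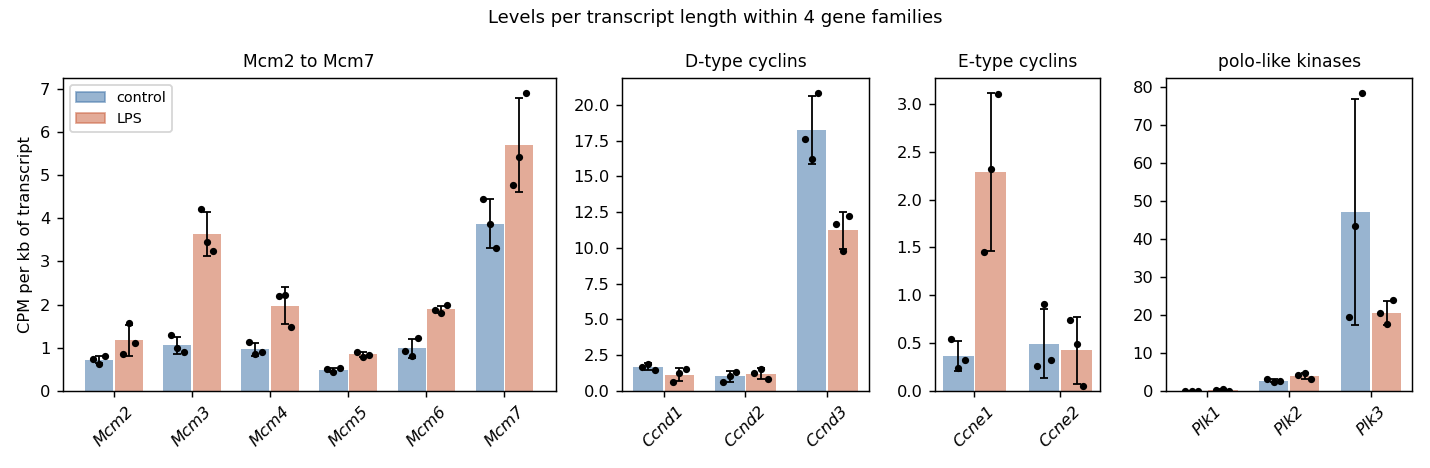
Levels per kb of transcript for Mcm2 to Mcm7, the D-type cyclins, the E-type cyclins and the polo-like kinases. Bars are means, error bars SD over 3 libraries and points single libraries, with a separate axis for each family. Mcm3 and Ccne1 stand higher in every LPS library, Ccnd3 and Plk3 hold the highest level of theirs in both groups, and the control values of Plk3 are widely spread.

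The factors that load this helicase were Cdt1, which could be tested, and Cdc6, which could not. Cdt1, which brings the helicase to the origin recognition complex, had 2.65, 1.95 and 3.08 CPM in controls and 2.90, 2.25 and 2.99 CPM in LPS libraries. The groups overlapped, and the log2 fold change of 0.09 had a 95% interval from -0.66 to 0.85, which includes the values of Mcm2, Mcm5 and Mcm7. Cdc6, the other loading factor, had 0, 6 and 4 counts in the controls and 8, 4 and 6 in the LPS libraries and was too scarce to test.

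None of the 4 genes of DNA synthesis passed the test. Pcna, the sliding clamp of the DNA polymerases, had 13.3, 16.0 and 15.1 CPM in controls and 17.1, 16.2 and 18.8 CPM in LPS libraries, above each control but by little (log2 fold change 0.23, 95% interval -0.11 to 0.56). Rrm1, the large subunit of ribonucleotide reductase, had 6.86 to 9.36 CPM in controls and 7.68, 13.7 and 8.34 CPM in LPS libraries (0.32, 95% interval -0.21 to 0.85). Rrm2, its small subunit, whose RNA peaks in S phase in dividing cells, pointed the other way. Rrm2 had 5.85, 3.11 and 2.44 CPM in controls and 0.853, 3.09 and 2.14 CPM in LPS libraries (-0.87, 95% interval -1.86 to 0.12), and passed as lower only without LPS replicate 2 (-1.30, adjusted p = 0.0428 by edgeR). Tyms, which makes thymidylate, ran from 4.18 to 5.69 CPM in controls and from 2.57 to 3.92 CPM in LPS libraries, without overlap (-0.53, 95% interval -1.18 to 0.11).

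Of the 12 genes of G2 and mitosis 7 could be tested, and 3 of these (42.9%) rose and 0 fell, beside 31.3% and 31% of all tested genes. Mki67, whose product coats mitotic chromosomes and serves as a histological marker of cycling cells, had 10, 36 and 18 counts in the controls and 28, 71 and 61 in the LPS libraries. In CPM these were 0.780, 1.75 and 1.15 against 2.39, 4.99 and 4.35, without overlap (log2 fold change 1.64, SE 0.42, adjusted p = 0.00391 by edgeR). Ccna2, cyclin A, which acts in S phase and G2, rose from 0.624, 0.486 and 1.03 CPM to 2.64, 2.39 and 1.57 CPM (1.63, SE 0.48, adjusted p = 0.00951 by edgeR). The call of Ccna2 ended without control replicate 2 (1.36, adjusted p = 0.0534 by edgeR), and its exons share 510 bases with Exosc9 on the opposite strand, which rose as well (0.82). Top2a, the topoisomerase that separates replicated DNA, had 1.40, 1.65 and 1.03 CPM in controls and 3.41, 6.26 and 1.35 CPM in LPS libraries. The groups of Top2a overlapped through LPS replicate 3 (1.42, SE 0.50, adjusted p = 0.0235 by edgeR), and its call ended without LPS replicate 2 (0.79), control replicate 1 (1.43) or control replicate 3 (1.24).

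The other testable mitotic genes did not pass. Cdk1, the kinase that drives entry into mitosis, had 1.09, 1.36 and 1.41 CPM in controls and 1.54, 3.66 and 2.28 CPM in LPS libraries, above every control (log2 fold change 0.95, adjusted p = 0.0720 by edgeR), and passed without LPS replicate 1 (1.18). Aurka, a kinase of the spindle poles, lay below every control, with 3.43, 2.24 and 2.31 CPM against 1.36, 0.984 and 2.07 CPM (-0.84, adjusted p = 0.0985 by edgeR). Fam210b, which lies 441 bases from Aurka on the opposite strand, went from 120.3 ± 13.9 to 30.6 ± 2.08 CPM (SD, n = 3). Ccnb2, a cyclin B, and Birc5, the survivin of the chromosomal passenger complex, had log2 fold changes of -0.01 and 0.02, with 95% intervals from -1.42 to 1.40 and from -1.34 to 1.37. Both intervals include a 2-fold change in either direction.

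The 5 mitotic genes too scarce to test are defining genes of M phase. Ccnb1, the main cyclin of mitosis, had 0, 4 and 0 counts in the controls and 2, 14 and 2 in the LPS libraries, and 3 processed pseudogenes match 1287 to 1294 bases of its transcript. Plk1, the kinase of mitotic entry and spindle assembly, had 0, 2 and 2 counts and 4, 18 and 0. Aurkb, a kinase of the chromosomal passenger complex, had 4, 6 and 0 counts and 2, 2 and 2. Such counts show only that these transcripts were rare in both groups. Bub1, of the spindle checkpoint, had 4, 6 and 0 counts in the controls and 6, 2 and 0 in the LPS libraries, and Cdc20, which activates the anaphase complex, had 0, 10 and 8 against 0, 9 and 4.

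LPS replicate 2 held the highest LPS value in 7 of the 12 genes of G2 and mitosis. The summed CPM of the 12 genes was 11.1, 9.54 and 9.17 in the controls and 14.1, 23.7 and 13.6 in the LPS libraries, so each LPS library lay above each control, and LPS replicate 2 lay furthest above. Of the 8 licensing genes LPS replicate 2 held the highest LPS value in 2. The neutrophil sums in LPS replicates 1, 2 and 3 were 258.8, 268.5 and 218.9 CPM, and those of the erythroid markers 339.9, 449.7 and 413.1. Sinusoidal endothelial markers summed to 150.9, 257.7 and 180.0 CPM. The T and NK cell, B and plasma cell, stellate cell and cholangiocyte sums were also highest in LPS replicate 2. Kupffer cell sums were 271.6, 289.2 and 308 CPM, and monocyte and macrophage sums 41.19, 39.45 and 45.48 CPM. Both these and the hepatocyte sums were highest in LPS replicate 3. The part of any of these cells in the mitotic genes was not tested.

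**Figure D3:**
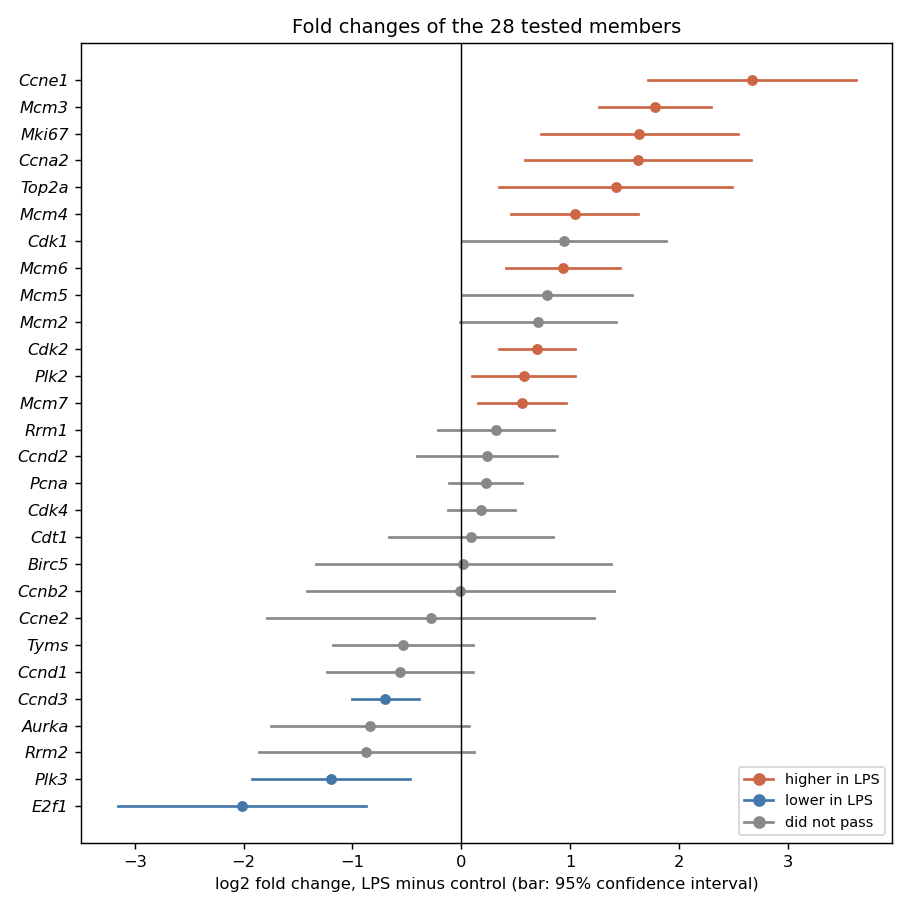
Log2 fold changes of the 28 tested members, LPS minus control, with 95% confidence intervals that are not adjusted for the number of genes. Orange points passed the adjusted threshold as higher in LPS, blue points as lower, and grey points did not pass. Ccne1 (2.67) and E2f1 (-2.01) mark the ends, and Ccnb2, Birc5 and Ccne2 have the widest intervals around 0.

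The polo-like kinases Plk2 and Plk3, which respond to stress and growth signals rather than acting at the spindle, moved in opposite directions. Plk3 had the highest mean CPM of the members, with 46.3, 103.0 and 186.4 CPM in control replicates 1, 2 and 3 and 48.7, 41.6 and 56.7 CPM in the LPS libraries. It fell (log2 fold change -1.19, SE 0.34, adjusted p = 0.00722 by edgeR), but control replicate 1 lay inside the LPS range. The coefficient of variation of Plk3 over the controls, 63.0%, exceeded that of 96.4% of tested genes. Its call ended without control replicate 3 (-0.64, adjusted p = 0.0576 by edgeR) and with DESeq2 (-1.20, adjusted p = 0.0539). Plk2 had 8.73, 6.47 and 7.31 CPM in controls and 11.4, 13.3 and 8.70 CPM in LPS libraries and rose (0.58, SE 0.22, adjusted p = 0.0352 by edgeR). LPS replicate 3 of Plk2 lay within the control range, and its call ended in 6 of 12 other fits.

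Per kb of transcript the highest levels in both groups belonged to Plk3, Ccnd3, Cdk4 and Pcna, and the mitotic genes were far lower. In controls Plk3 (47.1 ± 29.6 CPM per kb), Ccnd3 (18.2 ± 2.37), Cdk4 (16.1 ± 0.774) and Pcna (9.74 ± 0.913) led (SD, n = 3). The ranges of 1 SD around the means of Plk3, Ccnd3 and Cdk4 overlapped. Within each control library Plk3 still lay above Ccnd3. In control replicates 1, 2 and 3 Plk3 had 19.48, 43.33 and 78.37 CPM per kb, and Ccnd3 had 17.64, 16.23 and 20.85. In LPS libraries Plk3 (20.6 ± 3.18), Cdk4 (18.2 ± 3.32), Pcna (11.4 ± 0.862) and Ccnd3 (11.2 ± 1.29) led, and neighbours in that order again overlapped within 1 SD, apart from the step from Cdk4 to Pcna. Cdk2, Mcm7 and Plk2 followed in both groups. Mki67 stood at 0.122 ± 0.0487 CPM per kb in controls and 0.389 ± 0.135 in LPS libraries, and the group means of the 6 untested members ran from 0.0261 to 0.244. By CPM, Plk3 exceeded 87.2% of tested genes, Cdk4 71.4% and Ccnd3 68.3%, whereas Mki67 exceeded 15.4%, Ccna2 8.53% and E2f1 3.98%.

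In a list of 52 partners of DNA replication, 46 could be tested, of which 14 (30.4%) were higher and 9 (19.6%) lower, with a median log2 fold change of 0.00139. The share of higher genes was near the 31.3% of all tested genes. Orc2, a subunit of the origin recognition complex, went from 2.83 ± 1.13 to 11.9 ± 0.361 CPM (2.05, SE 0.28, adjusted p = 2.265e-05 by edgeR), and Rpa2, of the single-strand binding protein RPA, from 3.95 ± 0.787 to 16.3 ± 3.17 CPM (2.04). Exons of Orc2 share 1150 bases with Nif3l1, which rose as well (0.44). Mcm10, a helicase activation factor, went the other way, from 63.4 ± 6.4 to 11.1 ± 1.99 CPM (-2.51, SE 0.16, adjusted p = 1.009e-08 by edgeR), as did Tk1, the thymidine kinase of dividing cells (10.8 ± 2.48 to 1.86 ± 0.275 CPM, -2.53). Exons of Tk1 share 83 bases with Afmid on the opposite strand, which went from 21.8 ± 5.76 to 1.52 ± 0.723 CPM (SD, n = 3 for all). Pole4, of the leading-strand polymerase complex and the gene of the list with the highest CPM averaged over the 6 libraries, rose (0.61).

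In a list of 57 partners in mitosis, 36 could be tested, of which 11 (30.6%) were higher and 5 (13.9%) lower (median 0.64). Over all tested genes 31.3% were higher and 31% lower. The pair of small Cdk-binding proteins moved apart. Cks1b rose from 3.17 ± 0.453 to 19.7 ± 1.71 CPM (2.62, SE 0.20), and Cks2 fell from 9.07 ± 1.44 to 2.63 ± 0.195 CPM (-1.79, SE 0.25). Hmgb2, a chromatin protein abundant in dividing cells, rose (2.53), Spc24, of the kinetochore, fell (-2.05), and Tubb5, a beta-tubulin with the highest mean CPM of the list, rose (0.44). The number that fell was 8 without LPS replicate 1.

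Gadd45g and Cdkn1a, which rose, and Cdkn1c, which fell, restrain the cycle and differed by larger folds than any member. Of 25 listed brakes and related genes 21 were tested. Of these 10 (47.6%) were higher and 7 (33.3%) lower, beside 31.3% and 31% of all tested genes. The median of the 21 was 0.40, also with Cdkn1c set to its bound. Cdkn1a, the p21 inhibitor of cyclin-dependent kinases, had 44.1, 26.7 and 37.2 CPM in controls and 351.8, 353.2 and 381.2 CPM in LPS libraries (3.33, SE 0.17, adjusted p = 2.045e-09 by edgeR). Gadd45g, a growth arrest protein with the highest mean CPM of the list, went from 15.1 ± 5.34 to 580.2 ± 31.8 CPM (5.27, SE 0.22). Its relative Gadd45b fell (-1.94). Cdkn1c, the p57 inhibitor, had 22, 20 and 20 counts in the controls and 0 in each LPS library, which is at least 16.9-fold lower when the LPS group is given a floor of 3 counts in all. Of 27 listed E2F, MYB and MYC factors 23 were tested (median 0.55). Of these 9 (39.1%) were higher and 6 (26.1%) lower, beside 31.3% and 31% of all tested genes. Mxd1 (2.68), which competes with MYC, and Max (1.08), their shared partner, rose, and Mycl (-2.15), Mxi1 (-1.21) and Mxd4, with the highest mean CPM (-0.46), fell.

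Among 24 other cyclins and cyclin-dependent kinases, all of them tested, 12 (50%) were higher and 5 (20.8%) lower (median 0.42). Over all tested genes 31.3% were higher and 31% lower. Ccnl1, a cyclin of splicing and transcription, rose from 47.5 ± 5.92 to 221.1 ± 9.46 CPM (2.22), and Ccng1, a target of p53, rose (1.13). Cdk6, the other kinase of the D-type cyclins, fell from 27.7 ± 3.85 to 13.1 ± 3.17 CPM (-1.08, SE 0.19, adjusted p = 0.0002045 by edgeR), as did Cdk18 (-0.89) and Ccni (-0.49), with the highest mean CPM of the list.

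**Figure D4:**
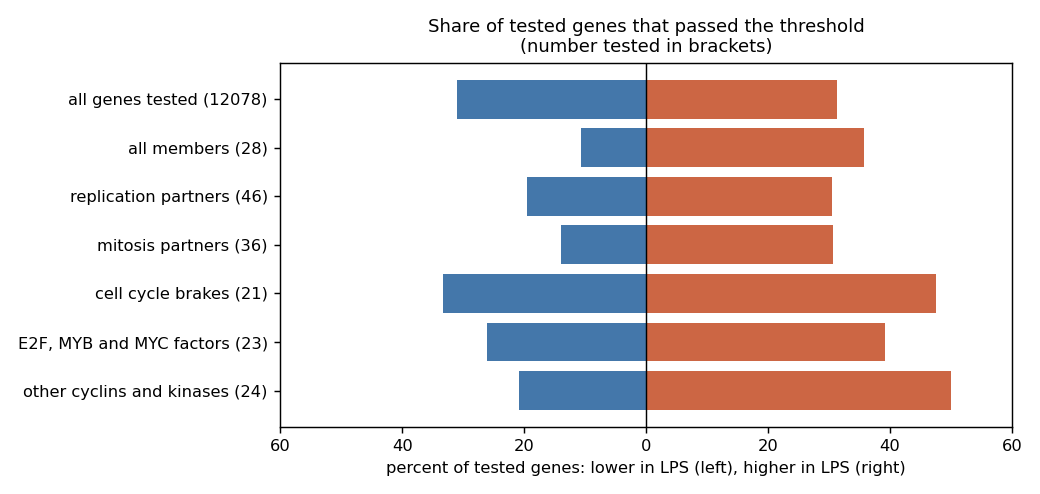
Percent of tested genes that were higher (orange, to the right) or lower (blue, to the left) in LPS libraries, for all genes tested, the members and 5 lists of other cell cycle genes. The members stand at 35.7% higher and 10.7% lower, beside 31.3% and 31% of all genes.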

How the data were processed

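RNA extracted with Trizol from mouse liver was sequenced in 6 libraries, 1 per sample. Per the submitters' processing notes, the tools were bcl2fastq 2.0, HISAT2, StringTie, DESeq2 and limma with mm10, with no role stated. Counting tool, annotation, strand setting and treatment of multi-mapped reads: not given in the sources used here. Raw counts per gene, as whole numbers for 22488 genes, were deposited by the authors in 1 table per library. Between 90.1% and 92.2% of counts from 1 to 10 were even in each library, and 39 of 41 member values in that range. Whether both reads of a pair were counted is not stated, so no counting intervals are given. No value column was left unused.

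LPS was compared with control in R 4.3.3 with edgeR 4.0.16 (TMM scaling, filterByExpr with minimum count 10 and minimum total 15, quasi-likelihood F test, 2-sided, Benjamini-Hochberg over 12078 genes, threshold 0.05), a method tested on simulated data. Standard errors were derived from the F statistic. Nothing says that libraries came from separate mice, so p values measure the spread between these samples, and library pairs within a group differed by more than counting error (chi-square per degree of freedom 12.3 to 33.1). Levels per kb used the longest coding transcript of GENCODE M21 (GRCm38). Alternatives were DESeq2 1.42.0, library totals, no filter, a filter on mean CPM (at least 1), the replicate number as a block, each library left out and, added after seeing the data, halved counts. Copies were sought with blastn 2.17.0 (identity at least 95% over 150 bases). The rule for named genes takes all members and, in each list of other cell cycle genes, the 2 with the smallest adjusted p in each direction and the one with the highest mean CPM. Some of the genes that overlap or neighbour a named gene are given for position. The members and lists were chosen with earlier results of these data known. Protein sequences were not used here.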

Additional observations from a re-analysis of the deposited data

How the results depend on the processing

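Of the 10 members called higher and 3 called lower, 8 kept their call in every other fit they entered: Ccne1, Ccnd3, Cdk2, E2f1, Mcm3, Mcm4, Mcm6 and Mki67. Over 331 member values from 12 other fits, 299 kept their direction and side of the threshold, 14 lost a call, 4 gained one and 14 changed sign, and none of those that changed sign had been called. With 1 library left out, Ccnd2 ran from -0.000597 to 0.47, Ccne2 from -0.92 to 0.51, Cdt1 from -0.11 to 0.23, Ccnb2 from -0.45 to 0.27 and Birc5 from -0.44 to 1.01. Single values of these runs that changed sign were 0.27 for Ccne2 without LPS replicate 3, 0.20 and 0.25 for Ccnb2 without control replicates 1 and 3, and -0.26 and -0.27 for Birc5 without control replicate 3 and LPS replicate 2. Birc5 was also at -0.0524 by library totals, -0.0304 without a filter and -0.0273 by DESeq2, and Ccnb2 at 0.0508 with the replicate block. The cause was not tested. In the same runs 7 to 10 members were higher and 2 to 4 lower, and the number of lower mitosis partners ran from 5 to 8, with 8 without LPS replicate 1. Halved counts gave 12 higher, adding Mcm5 (0.80) and Cdk1 (0.96). The replicate block left 10 members higher and 3 lower, and changed no member's call. The sample titles number the libraries of each group as repeat experiments, and no pairing is stated. As deviations from their group means, libraries with equal numbers had correlations of -0.000745, 0.104 and 0.0352. Those with unequal numbers ran from -0.121 to 0.0741. With so few libraries per group these values can neither show nor exclude a pairing. By library totals the split over all genes was 3439 higher and 3981 lower. Low counts limit Ccnb2, Birc5, Ccne2, E2f1 and the 6 untested members. They also limit the control levels of Ccne1 (14, 10 and 10 counts) and Ccna2 (8, 10 and 16 counts), and so the size of their rises.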

Other observations

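Mcm10 stood apart from the helicase subunits in direction and, in controls only, in level. In LPS libraries its level lay within their range. Per kb of transcript it had 13.0 CPM in controls and 2.28 in LPS libraries, beside 0.490 to 3.88 for Mcm2 to Mcm7 in controls and 0.847 to 5.70 in LPS libraries. Mcm10 had 56.1, 65.5 and 68.4 CPM in the controls and 10.8, 13.2 and 9.27 CPM in the LPS libraries, and the 1 gene within 5000 bases of it in the tables, Ucma, was at 0 in every library.

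Plk3 was not the only gene with a wide control spread of that kind. Jun, a subunit of the AP-1 factor, had 27.6, 52.8 and 88.5 CPM in control replicates 1, 2 and 3 and 52.7, 50.9 and 54.3 CPM in LPS libraries, and Dusp1, a phosphatase of stress kinases, had 15.5, 28.6 and 52.6 CPM and 64.7, 72.9 and 58.7 CPM. Both were named after their values were seen. The growth arrest genes Gadd45a (log2 fold change 4.71) and Btg2 (3.67), also named after their values were seen, rose beside Cdkn1a and Gadd45g. Of the 21 tested genes in the list of brakes 10 rose and 7 fell. Those that fell included Cdkn2c (-1.58), Trp53 (-0.79), Rb1 (-0.79) and Rbl2 (-0.67).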
